A study of Mus musculus with 8 samples.

Results

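The first 70 Mb of mouse chromosome 14 (build mm10) was examined for open chromatin in long-term haematopoietic stem cells (HSC), and 24 of its accessible regions were called in all 4 MUT and in no WT libraries. Overlapping peaks of the 8 deposited peak lists had been merged into 90736 regions on chromosomes 1 to 19 and X. Every region on chromosome 14 with its midpoint below 70 Mb was kept, whatever its calls, which gave 2428 regions, or 2.68% of all. Another 1226 regions lay on the rest of chromosome 14 and 88308 lay outside the first 70 Mb over the whole genome. The stretch itself was chosen by its number of genotype-separating calls, that is, by which peaks of these MUT and WT libraries overlap, so its MUT against WT values are given as a description, with no test. Comparisons of T1 with T2 did not enter that choice and are tested.

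The stem cells were sorted from bone marrow of Vav1-cre iMOS Bcl11a MUT mice and of Vav1-cre iMOS Bcl11a WT mice. The mice were 2 to 3 months old by one label and 3 months old by another. The groups were MUT T1, MUT T2, WT T1 and WT T2, with 2 libraries in each, and the study asked what Bcl11a does inside stem cells and in the wild-type cells beside them. Every group carries Vav1-cre, a recombinase driven by a promoter active throughout blood cells, and an iMOS Bcl11a allele. How that allele is built, what sets T1 apart from T2, which of them carries a Bcl11a transgene and the genetic background of the mice are not given in the sources used here. Whether the 2 libraries of a group came from different animals is not stated there either, although they differed in Y-linked peaks (below). P-values thus reflect the spread over these libraries alone. ATAC-seq measures accessibility by letting a transposase insert adapters where DNA is open, here on 5000 nuclei per library for 30 min at 37 °C. A peak in the deposited lists marks such a place, and its fold enrichment is the authors' ratio of summit to local background, which says how far a peak stood above background within its own library.

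Chromosome 14 carries in this stretch several gene groups that matter for blood and for signalling. Angiogenins and eosinophil-associated ribonucleases are small secreted enzymes of the ribonuclease A family that act on RNA, blood vessels and microbes, and they sit in clusters of similar copies. The nuclear receptors Rarb and Thrb bind retinoic acid and thyroid hormone, and they regulate genes from within chromatin. The T cell receptor alpha locus (Tcra, with the delta segments inside it) holds long arrays of variable segments that are opened and recombined in developing T cells and are otherwise mostly closed.

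Promoter windows of 4 genes are shown, because the regions that separated the genotypes lay away from them. Each window runs from 250 bases before to 50 bases after a transcript start, 5′ to 3′ on the gene's strand, from RefSeq (GRCm38.p6, which is mm10), with CG pairs in capitals. The windows are Abhd6 at chr14:8002638-8002937 on the plus strand, Rarb at chr14:16575427-16575726 on the minus strand, Thrb at chr14:17660710-17661009 on the plus strand and Ear6 at chr14:51853518-51853817 on the plus strand.
Abhd6: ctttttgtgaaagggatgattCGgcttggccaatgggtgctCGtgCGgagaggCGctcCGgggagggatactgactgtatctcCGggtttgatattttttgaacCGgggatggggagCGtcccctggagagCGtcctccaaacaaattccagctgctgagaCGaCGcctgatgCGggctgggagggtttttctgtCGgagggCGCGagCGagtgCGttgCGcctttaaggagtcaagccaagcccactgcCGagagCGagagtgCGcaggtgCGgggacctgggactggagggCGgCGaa
Rarb: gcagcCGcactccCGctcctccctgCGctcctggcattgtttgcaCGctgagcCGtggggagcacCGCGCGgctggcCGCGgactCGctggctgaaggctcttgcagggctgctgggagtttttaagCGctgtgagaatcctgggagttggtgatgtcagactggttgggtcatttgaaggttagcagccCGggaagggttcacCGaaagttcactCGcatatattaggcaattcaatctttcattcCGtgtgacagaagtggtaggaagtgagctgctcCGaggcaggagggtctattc
Thrb: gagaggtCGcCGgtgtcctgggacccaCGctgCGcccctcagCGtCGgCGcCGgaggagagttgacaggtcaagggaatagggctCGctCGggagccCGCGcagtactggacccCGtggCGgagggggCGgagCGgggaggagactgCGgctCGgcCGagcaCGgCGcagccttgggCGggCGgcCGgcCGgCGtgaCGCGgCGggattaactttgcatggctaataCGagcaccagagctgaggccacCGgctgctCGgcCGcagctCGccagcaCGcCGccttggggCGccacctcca
Ear6: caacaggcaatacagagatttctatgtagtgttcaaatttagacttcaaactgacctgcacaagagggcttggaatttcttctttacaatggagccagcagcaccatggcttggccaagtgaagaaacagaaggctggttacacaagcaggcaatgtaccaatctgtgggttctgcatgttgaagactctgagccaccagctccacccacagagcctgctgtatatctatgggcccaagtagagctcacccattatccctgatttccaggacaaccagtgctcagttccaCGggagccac
The Abhd6, Rarb and Thrb windows held 24, 17 and 37 CG pairs, and each lay under a region that was called in all 8 libraries. The Ear6 window held 1 CG pair and lay under no region. Abhd6 and Thrb have a second window each in the RefSeq table, not printed here. That of Thrb, at chr14:17981394-17981693, held 4 CG pairs and the letters TATAAA, and lay under no region. A region that began just past its end, chr14:17981704-17982456, was called in all 8 libraries, at a fold enrichment of 6.50 to 10.3. The letters TATAAA, searched on both strands, were in none of the 4 printed windows, and 13.6% of all 32851 promoter windows held them. Over the whole stretch, 364 of 1039 promoter windows (35.0%) lay under a region called in all 8 libraries, with a median of 21 CG pairs, and 645 (62.1%) lay under no region, with a median of 3. None of the 1039 windows lay under a region that separated the genotypes, and none under one that separated T1 from T2.

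Depth and cell type were checked first. The libraries held 62232 to 74785 peaks, and the background recovered from the deposited values, a measure of depth, was 1.89 to 3.38 fragments per position. The shallowest were MUT T1 replicate 2 at 2.04 fragments and the WT T2 pair at 2.45 and 1.89, against 3.10 to 3.38 in the other 5. All 10 HSC markers had a gene end called in all 8 libraries. Of the 4 T cell markers 1 had such an end (Cd3e and Cd8a had no region within 5 kb), as did 2 of 4 for B cells, 0 of 4 for neutrophils, 2 of 4 for erythroid cells and 3 of 4 for endothelium. Peaks at the Y-linked genes Kdm5d, Eif2s3y, Uty and Ddx3y were in replicate 1 of all 4 groups and in no replicate 2. The 2 libraries of a group thus differed as cells of a male and a female animal would. Replicate number cannot be told apart from this split, which is balanced over genotype and population.

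Most of the stretch was open alike in every library. Of its 2428 regions 1238 (51%) were called in all 8 libraries, against 54.7% in the rest of the genome, and 286 (11.8%) in a single library, against 11.6%. The median region was 684 bp wide, against 685 bp elsewhere, and 17.1% lay within 1 kb of a gene end, against 18.0% elsewhere. The stretch holds the starts of 701 protein-coding genes, and 1456 of its regions lay inside one.

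The 24 regions called in all 4 MUT and in no WT libraries (MUT-only) were 0.988% of the stretch, beside 0.222% of all regions. The share was 0.245% on the rest of chromosome 14, with 3 regions, and 0.2004% in the rest of the genome, with 177. The stretch thus held 4.93 times the share elsewhere, and 11.9% of all MUT-only regions. In the other direction, 6 regions were called in all 4 WT and in no MUT libraries (WT-only). They were 0.247% of the stretch, beside 0.0606% of all regions, with 49 in the rest of the genome and none on the rest of chromosome 14. Both directions were thus more frequent here than elsewhere, and MUT-only regions outnumbered WT-only regions in both places. The number of MUT-only regions was 43 without MUT T1 replicate 2 (3.14 times the share elsewhere) and 70 in the 5 libraries left without the 3 shallowest (2.25 times), where fewer calls are asked for. With replicate 1 libraries alone the ratio to the rest of the genome was 1.72, and with replicate 2 libraries alone 2.16, from 2 MUT and 2 WT calls in place of 4 and 4.

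**Figure D1:**
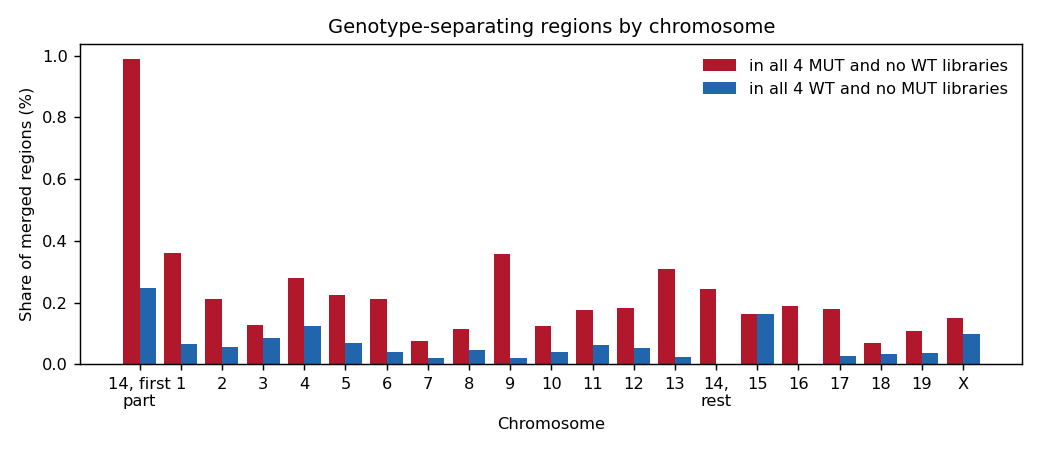
Share of merged regions (%) called in all 4 MUT libraries and in none of WT (red) or in all 4 WT libraries and in none of MUT (blue), for the first 70 Mb of chromosome 14 (left, "14, first part") and each other chromosome. The first 70 Mb stands at 0.988% and 0.247%, and the next highest red bar, chromosome 1, at 0.362%.

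The regions were not spread evenly along the stretch. Between 5 and 20 Mb, 10 of 347 regions (2.88%) were MUT-only and 2 WT-only, and between 45 and 55 Mb 9 of 468 (1.92%) were MUT-only and 3 WT-only. Between 20 and 45 Mb, 2 of 851 regions (0.235%) were MUT-only and none WT-only. From 55 to 70 Mb there were 3 of 759 (0.395%) and 1, and beyond 70 Mb 3 of 1226 (0.245%) and none. Of the 24 MUT-only regions 19 thus lay in the blocks from 5 to 20 Mb and from 45 to 55 Mb, as did 5 of the 6 WT-only regions. In steps of 5 Mb, 9 of 14 steps (64.3%) held at least 1 MUT-only region, against 142 of 519 (27.4%) elsewhere. The step from 50 to 55 Mb held 7, more than any step elsewhere, where the highest count was 4. In steps of 1 Mb, 51 to 52 Mb held 3, and no other step of the genome reached 3.

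**Figure D2:**
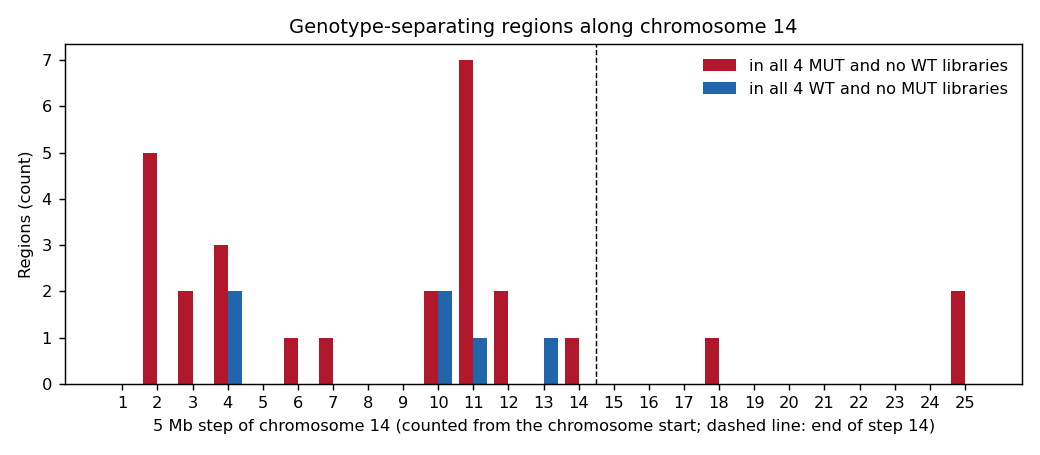
Number of MUT-only regions (red) and of WT-only regions (blue) in each 5 Mb step of chromosome 14; the dashed line marks 70 Mb. Red bars reach 5 in step 2 and 7 in step 11.

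The boundary at 70 Mb fell inside the gene Pebp4. Just inside, chr14:69993252-69994044 was called in 3 MUT and 4 WT libraries, and chr14:69994525-69994803 only in WT T1 replicate 1, at a fold enrichment of 3.12. Just outside, chr14:70001478-70001982 was called in MUT T1 replicate 2 (4.46) and MUT T2 replicate 2 (4.57) and in all 4 WT libraries (4.35 to 5.87). None of these regions separated the genotypes.

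The secreted ribonuclease genes held the 2 MUT-only regions with the highest mean fold enrichment over the MUT libraries, 8.17 ± 2.82 at Ang4 and 7.17 ± 1.17 near Ear6 (SD, n = 4 each). The region 2584 bp from Ear6, an eosinophil-associated ribonuclease gene, lay at chr14:51850953-51851415, upstream of the promoter printed above. Its fold enrichment was 7.30 and 6.26 in MUT T1 and 8.78 and 6.34 in MUT T2, with no peak in any WT library. No other MUT-only region of the stretch had a higher lowest value over the 4 MUT libraries. The region inside Ang4, which encodes an antimicrobial angiogenin, lay at chr14:51771289-51771912. It reached 11.6 and 5.60 in MUT T1 and 6.17 and 9.26 in MUT T2, again with no WT peak. MUT T1 replicate 1 was the highest of the 4 there, and the spread within MUT T1 was wider than the difference between the T1 and T2 means. A neighbouring region within 5 kb of Ang4, chr14:51777808-51778332, ran the other way in part: it was called in 2 MUT libraries, at 5.25 and 5.93 in MUT T1 and not in MUT T2, and in all 4 WT libraries, at 6.60 and 8.62 in the WT T1 pair and 10.7 and 7.25 in the WT T2 pair.

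Other members of the family were open in both genotypes or had no region. Of 20 ribonuclease A genes 7 had no region within 5 kb (Rnase2a, Ear1, Ear2, Ang5, Rnase1, Rnase9 and Rnase13). The other 13 shared 17 regions. Of these 11 were present in every library, 2 were MUT-only (11.8% of the 17, beside 0.222% of all regions, for a family named with its calls known) and none WT-only. Ear14 stood at 6.39, 8.57, 10.2 and 7.80 in the MUT libraries and 7.07, 7.46, 7.54 and 7.95 in the WT libraries, and the groups overlapped. Rnase2b stood at 5.25, 5.93, 8.31 and 5.85 in MUT and 5.42, 4.66, 5.51 and 6.22 in WT, which overlapped as well. The 5 genes of the smaller cluster near 44 Mb, which includes Ear1, Ear2 and Ear10, had 8 regions in a window around them and none that separated the genotypes. The window around the other 15 genes, from Rnase10 to Rnase13, had 94 regions, of which 4 were MUT-only, beside 0.222% of all regions. These were the regions at Ear6 and Ang4 and those in Tep1 and Gm7247, which are not among the 20 genes. Many of these genes are close copies of one another, and the placing of reads with several matches was not given in the sources used here. A call at one copy may include reads of another.

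The nuclear receptor genes carried long rows of regions, of which few separated the genotypes. Rarb, the retinoic acid receptor beta gene, had 26 regions, 10 of them present in every library. Its MUT-only region, chr14:16448480-16449178, lay 127 kb downstream of the promoter printed above and stood at 4.88 and 4.61 in MUT T1 and 4.18 and 4.64 in MUT T2. The 4 values were close together, and no WT list had a peak there. The region over the Rarb promoter was called everywhere, at 6.16, 6.41, 6.24 and 7.12 in MUT and 6.03, 5.98, 6.60 and 6.13 in WT. In another region, chr14:17012147-17013008, all 4 MUT libraries had a peak (7.12, 7.25, 8.02 and 10.7) and WT T2 replicate 1 was the single WT library with one (6.96).

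Thrb, the thyroid hormone receptor beta gene, had 17 regions, 7 of them present in every library. Its MUT-only region, chr14:17879242-17879933, was 219 kb downstream of the promoter printed above. It stood at 4.61 and 5.36 in MUT T1 and 4.04 and 7.74 in MUT T2. A region just before it, chr14:17875989-17876529, was called in all 4 MUT libraries (5.10, 4.53, 4.34 and 5.06) and in WT T2 replicate 2 (4.13), and chr14:17741177-17741628 in 3 MUT libraries and no WT library. The promoter region was called in all 8, at 6.08, 6.83, 5.12 and 6.09 in MUT and 5.69, 5.01, 6.64 and 6.92 in WT, which overlapped. The other 4 genes listed with them were Nr1d2 (a clock nuclear receptor), Top2b (a topoisomerase), Ngly1 (an enzyme that removes sugar chains from proteins) and Oxsm (mitochondrial fatty acid synthesis), and none had a separating region. Over the 6 genes, 2 of 56 regions (3.57%, beside 0.222% of all regions) were MUT-only and none WT-only. The receptor genes were named together with the stretch, so this share reads as a description of how they were picked.

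Near 8 Mb, a run of MUT-only regions crossed neighbouring genes. Dnase1l3 encodes a secreted enzyme that digests DNA in chromatin released from cells. Its MUT-only region, chr14:7977400-7978043, stood at 5.03 and 4.65 in MUT T1 and 4.78 and 6.15 in MUT T2. A second region in the gene, chr14:7986879-7987341, was called in 3 MUT libraries (3.60 in MUT T1 replicate 1, 3.75 and 4.74 in the MUT T2 pair), and in no WT library, while 4 further regions within 5 kb were called in all 8. Abhd6 encodes a lipase of monoacylglycerols, and its MUT-only region, chr14:8038070-8038765, stood at 7.15 and 5.49 in MUT T1 and 5.57 and 6.34 in MUT T2. It lay 35.5 kb downstream of the printed promoter, whose own region was called everywhere, at 5.23 to 7.61 in MUT and 7.94, 8.54, 9.73 and 9.93 in WT. There every WT value was above every MUT value, although fold enrichment is not on 1 scale across libraries of different depth.

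The last of the run lay between Rpp14, a ribonuclease P subunit gene, and Pxk, at chr14:8095407-8095914. It was weak, at 2.97 and 3.06 in MUT T1 and 3.05 and 3.79 in MUT T2. Those values are under or near the lowest fold enrichment that the WT libraries could call at genome background, 3.26 to 3.80. A peak can be called under such a limit where local background is higher. MUT T1 replicate 1 called this region at 2.97, under its own limit of 3.19. Of the 11 genes listed for this block, which also include Pdhb, Kctd6, Acox2, Fam107a, Fhit and Ptprg, all had a gene end called in all 8 libraries. Together they had 79 regions, with 3 MUT-only (3.80%, beside 0.222% of all regions, in a block picked with these calls known) and none WT-only. Another 4 were called in exactly 3 MUT and no WT libraries: the second Dnase1l3 region, a pair in the tumour suppressor Fhit and 1 in the receptor phosphatase Ptprg. MUT T1 replicate 2 was the missing library at all 4.

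The remaining MUT-only regions lay in or near genes of many kinds. Synpr (a synaptic vesicle protein) stood at 6.16, 4.94, 7.12 and 6.58 in the MUT libraries at chr14:13361366-13362108. The region 16271 bp from Wdhd1, a DNA replication factor gene, stood at 5.93, 7.58, 6.88 and 6.82, and the one 42503 bp from Galnt15, a glycosyltransferase gene, at 7.98, 5.60, 6.17 and 5.85. Tep1, a telomerase-associated protein gene, stood at 5.24, 8.22, 7.17 and 6.33, and Tmem260 at 5.25, 7.17, 4.98 and 5.12. At each of these 5, every MUT value was above the highest limit of the WT libraries at genome background, 3.80. That comparison makes no allowance for random spread in fragment counts. Dnah12 (an axonemal dynein) was between 4.56 and 5.27, Cadps (vesicle release) between 3.80 and 5.85, Parp4 (a vault-associated enzyme) between 3.27 and 5.27 and Dock5 (an activator of Rac) between 3.55 and 5.02. Predicted genes of families with similar copies accounted for Gm3248 (12916 bp away, 4.87 to 7.30), Gm3752 (3.90 to 4.94) and Gm7247 (4.79 to 6.26). Of the rest, 1 was 548 bp from the olfactory receptor gene Olfr1508 (4.56 to 6.58) inside the Tcra span, 2 were in Tcra away from protein-coding genes, and 2 had no protein-coding gene within 50 kb (4.79 to 5.70 at chr14:19177970-19178536 and 3.19 to 5.61 at chr14:58169834-58170327).

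The 6 WT-only regions were also away from promoters. Samd4, an RNA-binding repressor gene, had the strongest, chr14:47076797-47077465, at 7.49 and 7.15 in the WT T1 pair and 7.82 and 8.87 in the WT T2 pair, with no MUT peak. Acin1, a splicing and chromatin condensation factor gene, stood at 8.72 and 5.36 in the WT T1 pair and 7.83 and 8.98 in the WT T2 pair. Peli2, a ubiquitin ligase gene of Toll-like receptor signalling, stood at 5.41 and 5.91 in the WT T1 pair and 5.49 and 6.20 in the WT T2 pair. Fam124a ranged from 4.49 to 7.31 over the WT libraries. The other 2 lay 66.1 kb apart near 18.4 Mb with no protein-coding gene within 50 kb, at 4.24 to 6.96 and 5.08 to 7.36. Samd4 and Peli2 were 2 of 40 listed blood and stem cell genes of the stretch. With Dock5 they held the separating regions among 294 regions of that list, of which 169 were called in all 8. The separating ones were 1 MUT-only region (0.340%, beside 0.222% of all regions) and 2 WT-only regions (beside 0.0606% of all regions). Among 15 granule protease genes (Ctsg, the granzymes and the mast cell proteases), 10 had no region within 5 kb, and none of the 6 regions of the other 5 separated the genotypes.

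**Figure D3:**
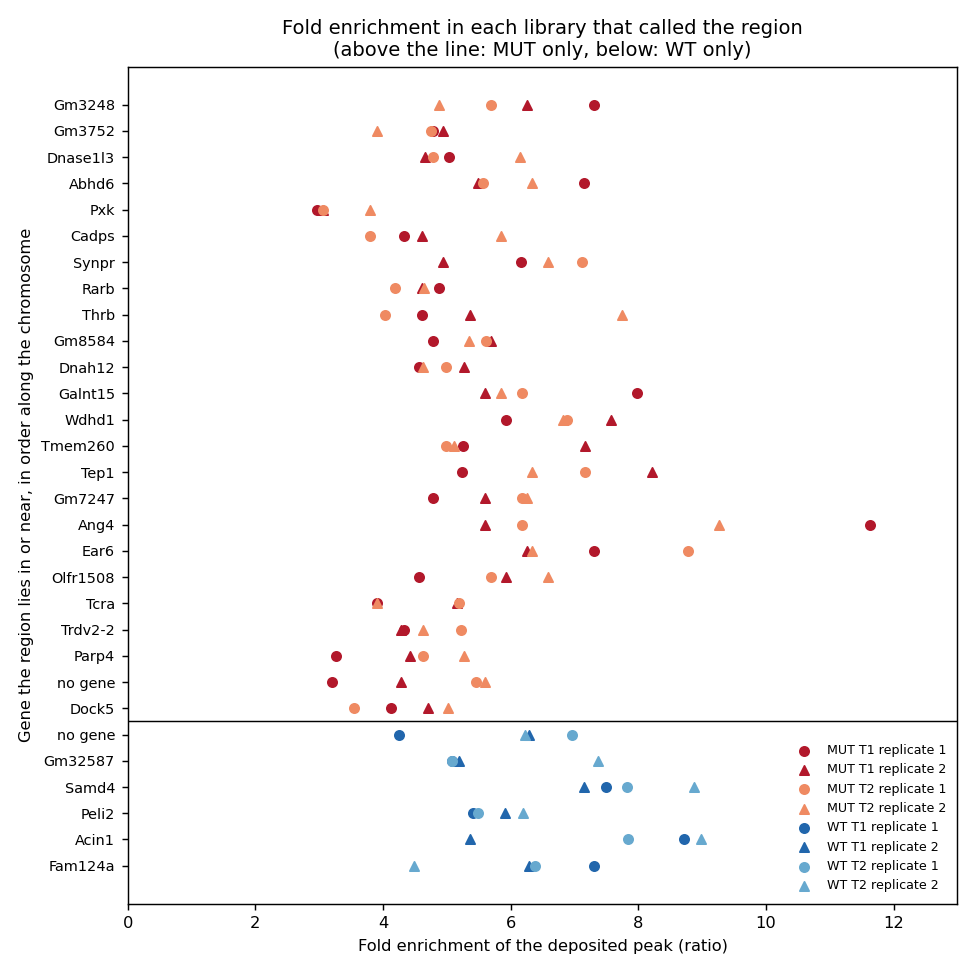
Fold enrichment (ratio) of the deposited peak in each library that called a region, for the 24 MUT-only regions (above the line) and the 6 WT-only regions (below it), in order along the chromosome. Circles are replicate 1 and triangles replicate 2; Ang4 in MUT T1 replicate 1 is the highest point at 11.6, and the Pxk region holds the lowest.

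As a set, the separating regions had a lower median width than those called in every library. A merged region spans the peaks of all libraries that called it, so fewer calls alone make for narrower regions. Regions of the stretch called in 1 library had a median width of 272 bp. The 24 MUT-only regions had a median width of 609 bp (332 to 1035) and 3 lay within 1 kb of a gene end (12.5%). The 1238 regions called in all 8 had a median width of 910 bp and 27.1% lay there, as did 17.1% of all regions of the stretch and 3.39% of MUT-only regions elsewhere. The 6 WT-only regions had a median width of 763 bp (487 to 879) and none lay there. In the MUT-only set 14 were inside a gene (58.3%), beside 60% of all regions of the stretch. Their lowest fold enrichment over the MUT libraries had a median of 4.61, above the 4.13 of MUT-only regions elsewhere. In 19 of the 24, every MUT library stood above the value that the WT libraries could call at genome background, taking the highest of their limits (3.80), and in 6 of 6 WT-only regions every WT library stood above the highest such limit of the MUT libraries (3.62). Where local background is higher than that of the genome, a peak can be called at a lower fold enrichment, down to 1.93 on the stretch. The limit thus applies at genome background only, and it takes no account of random spread in fragment counts.

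The Tcra locus (chr14:52427967-54224198), chosen for description after its values were seen, held 71 regions. Of these 54 and 48 were called in MUT T1 and 57 and 44 in MUT T2, against 30 and 35 in the WT T1 pair and 32 and 20 in the WT T2 pair. Every MUT library had more than every WT library, including the shallow MUT T1 replicate 2 with 48. As a share of a library's called regions the locus averaged 0.0727 ± 0.00679% in MUT and 0.0432 ± 0.00748% in WT (SD, n = 4 each), a ratio of 1.68. Most of the difference in counts came from the middle of the locus. From 53 to 54 Mb, 41 regions were called 32, 25, 35 and 27 times in the MUT libraries and 11, 15, 15 and 6 times in the WT libraries. Below 53 Mb, 12 regions were called 10, 10, 9 and 8 times in MUT and 6, 7, 5 and 5 times in WT. Such counts are not shares of a library's calls, and no like part of the genome was set beside this one. At the far end above 54 Mb, 18 regions were called 12, 13, 13 and 9 times in MUT and 13, 13, 12 and 9 times in WT, which overlapped. The 1 Mb step from 53 to 54 Mb had the highest MUT over WT ratio, 2.46, of 1877 steps of the genome. The next, from 115 to 116 Mb of chromosome 12 inside the immunoglobulin heavy chain locus Igh, had a ratio of 1.49, with 17, 11, 14 and 17 called regions in MUT and 6, 14, 9 and 9 in WT, which overlapped.

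Within Tcra, 3 of 71 regions were MUT-only, beside 0.222% of all regions. With these included, 8 of 71 (11.3%, beside 0.907% of all regions) were called in at least 3 MUT and no WT libraries. None was WT-only, and 1 was called in at least 3 WT and no MUT libraries. The MUT-only region chr14:53681243-53681861 stood at 3.91, 5.16, 5.19 and 3.90 in the MUT libraries, and chr14:53960724-53961322, in the delta variable segment gene Trdv2-2, at 4.33, 4.28, 5.22 and 4.63. Both were modest in height beside Ear6 and Ang4. Taken whole, the other antigen receptor loci had counts that overlapped between genotypes. Igh had 22 to 34 called regions in MUT and 18 to 29 in WT, Tcrb 17 to 25 and 19 to 25, Tcrg 5 to 6 and 4 to 5, and Igk 4 to 9 and 5 to 6. As shares of called regions, which overlapped too, the MUT over WT ratio was 1.29 at Igh, 1.19 at Tcrg, 1.07 at Igk and 0.937 at Tcrb. The 4 T cell marker genes had 6 called regions in each MUT library and 6, 5, 5 and 2 in the WT libraries, and Cd3e and Cd8a had none in any library. Their part in the Tcra counts was not tested. The variable segments are similar copies, so the limit on reads with several matches holds here too.

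Shares were also taken by block. The blocks were drawn where the MUT-only regions lay and the shares count those same calls, so they restate that pattern per library and add no support to it. Between 5 and 20 Mb, 211 to 271 of 347 regions were called in MUT libraries and 189 to 229 in WT libraries, a share of 0.355 ± 0.0122% and 0.314 ± 0.00672% of a library's called regions (SD, n = 4 each), with no overlap. Between 45 and 55 Mb without Tcra, the shares were 0.434 ± 0.00600% in MUT and 0.410 ± 0.00926% in WT, also with no overlap. From 20 to 45 Mb they were 0.933 ± 0.00151% and 0.940 ± 0.00780%, from 55 to 70 Mb 0.855 ± 0.0186% and 0.854 ± 0.00782%, and on the rest of chromosome 14 1.34 ± 0.0226% and 1.31 ± 0.0177%, and these overlapped. Of 53 steps of 1 Mb with at least 10 called regions in a library, 6 (11.3%) had every MUT share above every WT share, beside 2.08% of all such steps and 33 of 1824 (1.81%) elsewhere. The reverse held in 2 of the 53, beside 1.65% of all steps.

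**Figure D4:**
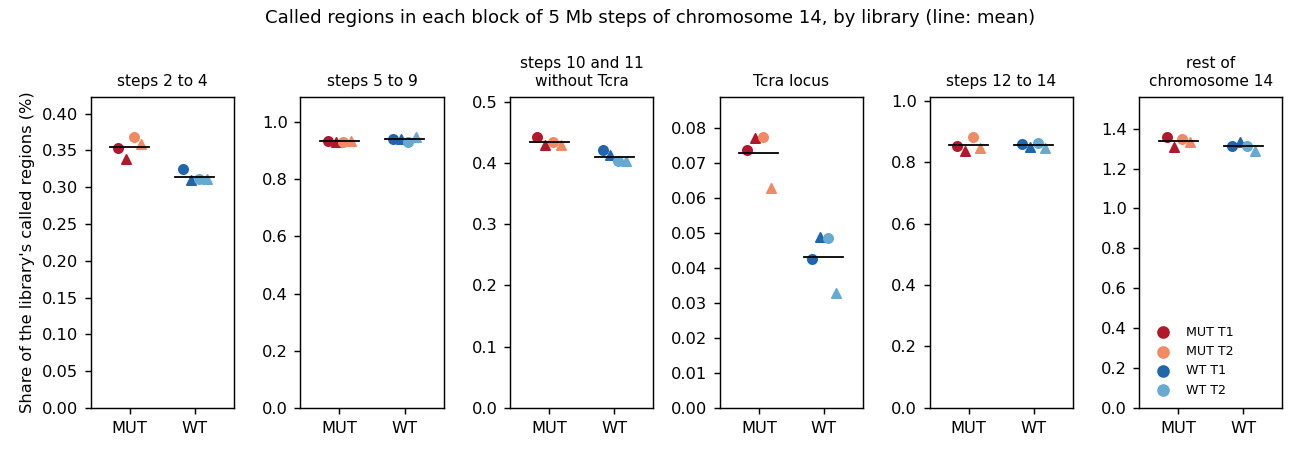
Share of each library's called regions (%) that lay in each block, MUT left of WT, with a line at the mean; circles are replicate 1 and triangles replicate 2. Steps 2 to 4 span 5 to 20 Mb, 5 to 9 span 20 to 45 Mb, 10 and 11 span 45 to 55 Mb and 12 to 14 span 55 to 70 Mb. The MUT and WT points separate in steps 2 to 4, in steps 10 and 11 and at Tcra, and overlap in the other panels.

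The same split was looked at in each population. In MUT T1 against WT T1, 64 regions of the stretch (2.64%) were called in both MUT and neither WT library, beside 1.26% of all regions. Another 63 (2.59%) were called in both WT and neither MUT library, beside 2.13% of all. In MUT T2 against WT T2 the counts were 153 (6.30%, beside 3.95%) and 20 (0.824%, beside 0.457%). The 24 MUT-only regions were 37.5% of the first set in T1 and 15.7% of that in T2, and the 6 WT-only regions were 9.52% and 30.0% of the reverse sets. A shallow library stood on the MUT side in T1 and both shallow libraries of T2 were WT. With every library thinned to the lowest depth the T2 counts were 122 and 28, and with equal numbers of peaks 80 and 43. The T2 counts thus depended on how many peaks each list was allowed. Leaving out MUT T1 replicate 2 gave 204 in T1, leaving out MUT T1 replicate 1 gave 242 of the reverse, and both single-library counts ask for fewer calls.

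A looser rule takes in the MUT-only and WT-only regions by construction, so its direction is not independent of theirs. In 3 or 4 MUT and no WT libraries, 53 regions were called (2.18%, beside 0.907% of all), and 18 in 3 or 4 WT and no MUT libraries (0.741%, beside 0.317%). Of the 29 called in exactly 3 MUT libraries, 19 lacked MUT T1 replicate 2, 5 lacked MUT T2 replicate 2, 4 lacked MUT T1 replicate 1 and 1 lacked MUT T2 replicate 1. Of the 12 called in exactly 3 WT libraries, 7 lacked WT T2 replicate 2, 3 lacked WT T2 replicate 1 and 2 lacked WT T1 replicate 1. The library most often missing was the shallowest of its genotype in both cases. Among the 1238 regions called in all 8, the rank of the fold enrichment within its library was higher in every MUT than in every WT library in 32 (2.58%, beside 1.73% of all such regions), and the reverse held in 25 (2.02%, beside 1.55%).

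The populations T1 and T2 were hardly separated along the stretch. In all 4 T1 and no T2 libraries, 3 regions were called (0.124%, beside 0.0507% of all regions). Each lay inside a gene: Arhgap22, a GTPase-activating protein gene (3.51 and 4.67 in MUT T1, 3.65 and 3.61 in WT T1), Dydc2 (4.11 and 6.59 in MUT T1, 7.78 and 5.13 in WT T1) and Hmbox1, a telomere-binding homeobox gene (3.65 and 4.94 in MUT T1, 4.24 and 3.73 in WT T1). Most of these values were low, and thinning every library to the lowest depth gave 1 such region. In all 4 T2 and no T1 libraries, none of the 2428 regions was called (upper exact limit 0.152%), beside 0.0265% of all regions. Among the regions called in all 8, rank was higher in every T1 than in every T2 library in 20 (1.62%, beside 1.37%), and the reverse in 12 (0.969%, beside 1.28%). By 1 Mb steps, 0 of 53 had every T1 share above every T2 share, beside 1.17% of all steps, and 2 had the reverse, beside 1.39%.

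Within a genotype the counts were close to those of the genome. In MUT, 19 regions (0.783%, beside 0.641% of all regions) were called in both T1 and neither T2 library, and 42 (1.73%, beside 1.74%) in both T2 and neither T1 library. In WT, the counts were 103 (4.24%, beside 3.9%) and 20 (0.824%, beside 0.632%). The population with fewer regions of its own, T1 in MUT and T2 in WT, was in both genotypes the one that held the shallow libraries, and the part of depth in these counts was not tested.

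The share of a library's peaks on the stretch was 2.61 ± 0.0381% in T1 and 2.60 ± 0.0774% in T2 (SD, n = 4 each; exact two-sided permutation test over 70 arrangements, p = 0.8286, smallest possible p 0.0286). The median peak width over the library's median elsewhere was 0.977 ± 0.0166 in T1 and 0.977 ± 0.00509 in T2 (exact permutation p = 0.943). The share of the stretch's peaks within 1 kb of a gene end was 20.5 ± 1.13% in T1 and 21.2 ± 1.31% in T2 (exact permutation p = 0.429). Adjusted by Benjamini-Hochberg over these 3 exact tests, every p was 0.943, so none of the differences exceeded the spread between libraries, and T1 was higher in 2 of 4 same-numbered pairs for each measure. Split by genotype, the share of peaks on the stretch was 2.66, 2.62, 2.70 and 2.63% in the MUT libraries and 2.58, 2.58, 2.55 and 2.53% in the WT libraries. Every MUT library was above every WT library, a mean difference of 0.0911 percentage points, given with no test.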

How the data were processed

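ATAC-seq peak lists of 8 libraries in 4 groups of 2 were used. Bowtie2, SAMtools, MACS2 and mm10 are named in the submitters' processing notes, without versions. Filters, transposase shift and the treatment of reads with several matches are not given in the sources used here. The authors deposited a separate list for each library, called without pooling, with a score, a fold enrichment (ratio), −log10 p-value and −log10 q-value per peak; the lowest −log10 q was 3.00. The deposited score was not used.

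Peaks overlapping by at least 1 bp were merged with pandas 2.3.3, numpy 2.4.6 and scipy 1.17.1 (Python 3.11.15). Any library with a peak overlapping a region by 1 bp was counted as calling it. Pileup and background were solved from the deposited ratio (with the pseudocount of 1 that the peak caller adds) and −log10 p-value, returning the latter within 0.001 for at least 99.9986% of peaks. This step was tested on simulated data. A region took the RefSeq GRCm38.p6 gene span holding its midpoint, or the nearest protein-coding gene within 50 kb; list genes used 5 kb. Exons were not analysed here. Counts have no test; T1 and T2 were compared by exact permutation. Named genes were the 15 strongest regions of each genotype, the 5 of each population and the listed genes; the other separating regions were named to account for every member. The members and lists were chosen with earlier results of these data known. Alternatives changed the q threshold, overlap, depth, summits and boundary, or left out libraries.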

Additional observations from a re-analysis of the deposited data

Results flagged for a closer look

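In 42 sets of 4 libraries tested for a library standing apart (Dixon's 95% limit), 3 had one, and chance alone gives about 1 in 20. At the Pxk region MUT T2 replicate 2 stood above the other MUT libraries, at a fold enrichment of 3.79 against 2.97 to 3.06. At the Tmem260 region MUT T1 replicate 2 stood at 7.17, against 4.98 to 5.25 in the other MUT libraries. At the WT-only region near 18.46 Mb WT T2 replicate 2 stood at 7.36, against 5.08 to 5.19 in the other WT libraries. Outside the merged chromosomes, a region of chromosome Y (chrY:90761351-90761817) was called in all 4 MUT libraries, at 10.3 and 9.88 in MUT T1 and 6.41 and 7.80 in MUT T2, and in no WT library. It lies away from the Y-linked genes whose peaks split by replicate number, and how repeated sequence there was handled was not given in the sources used here.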

How the results depend on the processing

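The 24 MUT-only regions became 18 to 23 with a −log10 q of at least 5, summit windows, thinning or equal numbers of peaks, and the 4.93-fold ratio stayed between 4.02 and 6.03 under those settings, other boundaries and without the ribonuclease windows. Alternatives chosen after seeing the data gave 70 MUT-only and 33 WT-only regions and a ratio of 2.25 without the 3 shallowest libraries, and ratios of 1.72 and 2.16 with replicate 1 or replicate 2 libraries alone, each with fewer calls required. Equal numbers of peaks gave 80 gained and 43 lost in T2, thinning 122 gained and 28 lost, and summit windows 31 lost. Thinning left 1 T1-only region, and 1 T2-only region appeared with a −log10 q of at least 5 and with equal numbers of peaks. Thinning turned the T1 minus T2 difference in share of peaks to -0.00057 and in width ratio to 0.00326.

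Leaving out each library in turn asks for fewer calls and gave 25 to 43 MUT-only (43 without MUT T1 replicate 2) and 6 to 13 WT-only regions (13 without WT T2 replicate 2, 11 without MUT T1 replicate 1). It gave 104 to 204 gained and 85 to 242 lost in T1, and 218 to 327 gained and 39 to 70 lost in T2. It gave 3 to 9 T1-only and 0 to 3 T2-only regions, and ratios of 3.14 to 4.50. The T1 minus T2 difference in share of peaks ran from -0.0152 to 0.0408, in width ratio from -0.00646 to 0.00679 and in gene end share from -1.25 to -0.142, with adjusted exact permutation p from 0.429 to 0.971. In a further exact permutation test, T1 and T2 were swapped only within pairs of the same genotype and replicate number, over 16 arrangements. There the same differences (0.00897, -0.000399 and -0.699) had exact p of 0.75, 1 and 0.5 (smallest possible 0.125) and adjusted p of 1. Correlations of same-numbered libraries ran from 0.0700 to 0.856. All were positive, but 1 of the 6 was under the 0.1 asked of every pair, and the numbers were not taken as pairs in the main tests.

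The lists hold only what passed the peak caller's threshold. A region absent from a shallow list may be open below it. In 5 of the 24 MUT-only regions the lowest MUT value was under the highest WT limit at genome background (3.80). That limit takes no account of random spread in fragment counts, so it does not show which of the 24 were missed in WT.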
